A study of Mus musculus with 14 samples.

Results

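Vstm2a, Elfn1, Wfdc17 and Gdpd2 are 4 of the 18193 genes measured in 3T3-L1 cells depleted of TP53INP2. They were chosen by the measured difference between KD TP53INP2 and control cells in these same arrays, which was larger at day 0 than at day 7. Arrays of all 4 groups entered that choice, so the values of the 4 genes in every comparison below are a description, with no test. The array carries 1 single-symbol probe set for each of the 4 genes, so each gene has 1 value an array: 1452065_at for Vstm2a and 1436530_at for Wfdc17, both on chromosome 11, 1442101_at for Elfn1 on chromosome 5 and 1429076_a_at for Gdpd2 on chromosome X. 3T3-L1 is a mouse fibroblast line that becomes fat cells under hormone treatment.

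Total RNA was measured on 14 arrays, 1 for each sample. Differentiated KD TP53INP2 cells (day 7, 4 arrays) and KD TP53INP2 preadipocytes (day 0, 3 arrays) carried a lentivirus with a sequence against TP53INP2. Differentiated control cells (day 7, 4 arrays) and control preadipocytes (day 0, 3 arrays) carried one with a scrambled sequence, so all 4 groups were transduced. Day 0 cells had been confluent for a short time and had not yet received differentiation medium, and day 7 cells had. The labels name neither a clone nor separate cultures. The p-values then measure only the spread between these samples, and what the knockdown did and what set the transduced cultures apart otherwise cannot be told apart.

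Vstm2a encodes a secreted immunoglobulin-domain protein that is known in mouse preadipocytes to promote commitment to the fat lineage and to amplify BMP signalling. Wfdc17 encodes a small secreted protein with a whey acidic protein (WAP) domain, known in mice from activated microglia and macrophages. Elfn1 encodes a membrane protein with leucine-rich repeats, known from neurons, where it binds metabotropic glutamate receptors across the synapse. Gdpd2 encodes a membrane phosphodiesterase that acts on glycerophosphoinositol and is known in mouse cells for promoting osteoblast differentiation. In adipogenesis, preadipocytes first become committed, and hormones then switch on PPAR gamma, C/EBP alpha and the genes of lipid storage.

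The promoters of the 4 genes are shown because the genes were picked for a shared direction of change at day 0. Each line gives the 250 bases before the annotated start, 5′ to 3′ on the gene's strand, from RefSeq (GRCm38.p6). Capitals mark the letters of 3 motifs found on either strand, the TATA box TATAAA, the GC box GGGCGG and the palindrome GGCGCC, which is a known BMP-response element core.
Vstm2a, chr11:16257492-16257741, + strand: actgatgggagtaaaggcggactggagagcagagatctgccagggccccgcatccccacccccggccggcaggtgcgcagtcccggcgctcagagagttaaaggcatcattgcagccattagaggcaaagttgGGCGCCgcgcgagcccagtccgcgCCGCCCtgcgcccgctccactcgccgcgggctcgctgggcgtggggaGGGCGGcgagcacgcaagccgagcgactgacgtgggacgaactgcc
Elfn1, chr5:139907616-139907865, + strand: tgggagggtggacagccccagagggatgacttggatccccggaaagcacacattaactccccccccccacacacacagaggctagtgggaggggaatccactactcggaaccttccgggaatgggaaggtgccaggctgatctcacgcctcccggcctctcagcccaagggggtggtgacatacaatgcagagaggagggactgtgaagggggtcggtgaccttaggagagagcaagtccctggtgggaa
Wfdc17, chr11:83703806-83704055, + strand: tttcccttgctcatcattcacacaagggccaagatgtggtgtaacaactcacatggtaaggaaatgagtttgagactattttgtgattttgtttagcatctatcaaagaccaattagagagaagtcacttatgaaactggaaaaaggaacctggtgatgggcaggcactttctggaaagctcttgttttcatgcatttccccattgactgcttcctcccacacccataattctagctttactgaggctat
Gdpd2, chrX:100729597-100729846, + strand: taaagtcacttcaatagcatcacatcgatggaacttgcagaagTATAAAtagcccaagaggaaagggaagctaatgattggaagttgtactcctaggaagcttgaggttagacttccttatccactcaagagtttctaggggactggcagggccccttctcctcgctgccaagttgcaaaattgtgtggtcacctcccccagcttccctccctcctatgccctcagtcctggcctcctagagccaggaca

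The windows were unlike in base composition. GC made up 70.0% of the Vstm2a window, 60.8% of the Elfn1 window, 41.2% of the Wfdc17 window and 50% of the Gdpd2 window, against a median of 52.4% over 32851 promoter windows. The Vstm2a window held 2 GC boxes and 1 GGCGCC. A GC box was present in 32.7% of all windows and GGCGCC in 9.59%. The Gdpd2 window held 1 TATA box, starting 207 bases before the start, and a TATA box was present in 12.4% of all windows. The Elfn1 and Wfdc17 windows held none of these motifs. The letters TTGCNNCAA and the letters TGANTCA, the latter an AP-1-type site, were in none of these 4 windows and in 1.74% and 6.75% of all windows. TTGCNNCAA does not match the C/EBP palindrome, so its absence says nothing about C/EBP sites, which were not searched for. A second Gdpd2 window, from another annotated start, had 59.6% GC and held none of the 5 motifs. None of the motifs searched was shared by all 4 genes.

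Trp53inp2, the targeted gene, was lower in every KD array than in every control array of its day. The brighter of its probe sets lay between 10.01 and 10.45 in day 7 KD cells, between 11.06 and 11.66 in day 0 KD cells, between 11.70 and 11.78 in day 7 controls and between 12.38 and 12.53 in day 0 controls (log2). Array medians were alike, from 5.44 to 5.57. Fat cell differentiation showed in the adipocyte markers: all 4 measured ones (Fabp4, Adipoq, Cidec and Retn) rose in control cells, where limma called 10.1% of all genes higher and 22.9% in either direction (adjusted p under 0.05). Fabp4, a fatty acid binding protein gene, averaged 13.57 ± 0.16 in day 7 controls and 12.11 ± 0.31 in day 0 controls (SD, n = 4 and 3).

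Vstm2a was raised in depleted preadipocytes to about the level that control cells reached only after differentiation. On the log2 scale of the deposited values it had 11.53, 11.56, 12.28 and 11.65 in day 7 KD cells and 11.14, 11.03 and 10.74 in day 0 KD cells. It had 10.92, 10.87, 11.87 and 10.996 in day 7 controls and 8.25, 8.39 and 8.13 in day 0 controls. The day 0 controls stood below all other arrays, while day 0 KD cells and day 7 controls overlapped. Day 0 KD cells averaged 10.97 ± 0.21 and day 0 controls 8.26 ± 0.13 (SD, n = 3 each), a difference of 2.71 ± 0.26 (SE), or 6.56-fold. At day 7 the means were 11.75 ± 0.35 in KD cells and 11.16 ± 0.47 in controls (SD, n = 4 each), a difference of 0.59 ± 0.22 (SE). By replicate number the day 7 difference was 0.61, 0.69, 0.41 and 0.65, so it ran the same way in all 4 pairs although the groups overlapped. For none of the 4 genes was every day 7 KD array above every day 7 control array, which 6.02% of all genes showed. Every day 7 KD array of Vstm2a lay above every day 0 KD array, as 21.3% of all genes did.

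Elfn1 showed the same order of groups at day 0 with much more spread at day 7. It had 6.47, 6.78, 8.06 and 5.69 in day 7 KD cells and 8.05, 8.18 and 7.21 in day 0 KD cells. It had 5.83, 5.84, 7.92 and 5.89 in day 7 controls and 4.90, 4.73 and 4.96 in day 0 controls. Replicate 3 was far above the other arrays in both day 7 groups. Day 0 KD cells averaged 7.81 ± 0.53 and day 0 controls 4.86 ± 0.12 (SD, n = 3 each), a difference of 2.95 ± 0.60 (SE). The day 7 means were 6.75 ± 0.99 in KD cells and 6.37 ± 1.03 in controls (SD, n = 4 each), and their difference of 0.38 ± 0.52 (SE) was smaller than the spread within either group. It was -0.06 without replicate 3 of the day 7 KD cells and 0.90 without replicate 3 of the day 7 controls.

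Wfdc17 had the largest increase of all 18193 genes at day 0, and the day 7 arrays ranged widely. The choice of the genes favoured such a rank, so nothing is read from it. It had 7.48, 7.33, 10.03 and 6.33 in day 7 KD cells and 10.15, 10.23 and 8.68 in day 0 KD cells. It had 6.14, 6.21, 7.22 and 5.28 in day 7 controls and 6.20, 5.26 and 5.22 in day 0 controls. Every day 0 KD array lay above every control array of either day, and 1 of the 4 day 7 KD arrays, at 10.03, lay within the range of the day 0 KD arrays. The difference at day 0 was 4.13 ± 0.78 (SE), with means of 9.69 ± 0.87 in KD cells and 5.56 ± 0.56 in controls (SD, n = 3 each). At day 7 it was 1.58 ± 0.68 (SE), with means of 7.79 ± 1.58 in KD cells and 6.21 ± 0.80 in controls (SD, n = 4 each). Within replicate numbers the KD array was the higher one in all 4 day 7 pairs, by 1.34, 1.13, 2.80 and 1.05. The day 7 difference was 0.83 without replicate 3 of the KD cells.

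Gdpd2 turned over between the days: depleted cells were above controls before differentiation and below them after it. It had 6.78, 6.99, 7.28 and 7.17 in day 7 KD cells and 10.29, 10.39 and 9.30 in day 0 KD cells. It had 7.67, 7.74, 8.06 and 8.85 in day 7 controls and 7.87, 7.97 and 8.20 in day 0 controls. The KD and control groups did not overlap at either day, and 6.96% of all genes had every day 7 KD array below every day 7 control. The KD groups of the 2 days did not overlap either, with day 0 above day 7 as in 18.0% of all genes. The difference was 1.98 ± 0.32 (SE) at day 0, with means of 9.99 ± 0.60 in KD cells and 8.01 ± 0.17 in controls (SD, n = 3 each). It was -1.02 ± 0.27 (SE) at day 7, with means of 7.06 ± 0.22 in KD cells and 8.08 ± 0.54 in controls (SD, n = 4 each). In KD cells Gdpd2 was 2.93 ± 0.30 (SE) lower at day 7 than at day 0, while in controls the 2 days differed by 0.06 ± 0.30 (SE). Preadipocyte and fibroblast markers were examined beside it. In control differentiation, where Gdpd2 differed by 0.06, 5 of the 7 measured ones were called lower (median -0.53), as were 12.8% of all genes. At day 7, 2 of 7 measured ones were called lower in KD cells, Pdgfra (-0.49 ± 0.13, adjusted p = 0.0436) and Col3a1 (-0.35 ± 0.07, adjusted p = 0.0134), with 3.57% of all genes called lower. The median of the 7 was -0.49 at day 7. With same-numbered arrays of a day as a block, a fit added after seeing the data, 5 were called lower. Without replicate 3 of every group, also chosen after seeing the data, 6 were. With the replicate number as a block over both days, which was planned, 3 were (Col3a1, Dlk1 and Pdgfra). Each of these fits called more of all genes at day 7 than the main fit, as counted at the end. At day 0, 0 of the 7 were called in any of these fits. In day 0 KD cells 4 of the 7 were called higher than in day 7 controls (Pdgfra, Pdgfrb, Dlk1 and Col1a1), with 12.1% of all genes called higher. The summed level of the 7 was 14.41 to 15.03 in day 7 KD cells, 15.53 to 15.58 in day 0 KD cells, 14.92 to 15.24 in day 7 controls and 15.59 to 15.64 in day 0 controls (log2 of the sum). Their part in the Gdpd2 values was not tested.

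**Figure D1:**
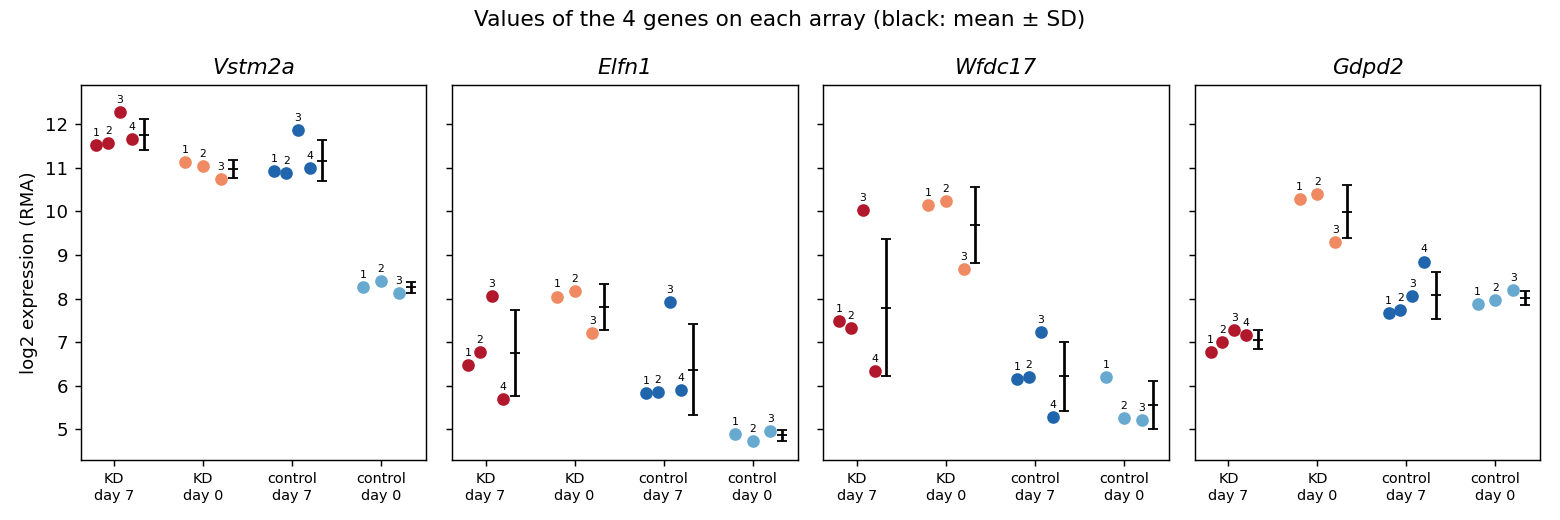
Log2 expression of each gene on each of the 14 arrays, grouped as KD day 7, KD day 0, control day 7 and control day 0, with the replicate number above each point and the mean ± SD in black. Day 0 KD arrays lie above day 0 controls in all 4 panels, and replicate 3 is the highest day 7 KD array in all 4.

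All 4 genes had every day 0 KD array above every day 0 control array, which 6.89% of all genes had; since the genes were chosen for this, nothing is read from it. Of the 35 genes called at least 2-fold higher at day 0 by limma (adjusted p under 0.05; 0.467% of all genes were called higher at any size, and 328 genes or 1.80% were called in either direction, 844 with same-numbered arrays of a day as a block), 19 had a day 0 difference at least 1 log2 unit above their day 7 difference. The 4 genes are among these 19, but they were chosen for such differences, so nothing is read from this or from the rank that follows. By the change in the knockdown difference between the days, Gdpd2 ranked 1st of all genes toward day 0, with -2.999 ± 0.42 for the day 7 difference minus the day 0 difference. The same quantity was -2.12 ± 0.34 for Vstm2a, -2.57 ± 0.79 for Elfn1 and -2.55 ± 1.03 for Wfdc17 (log2, SE). In the plot of all genes, the 4 genes stand to the right of the line of equal differences.

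**Figure D2:**
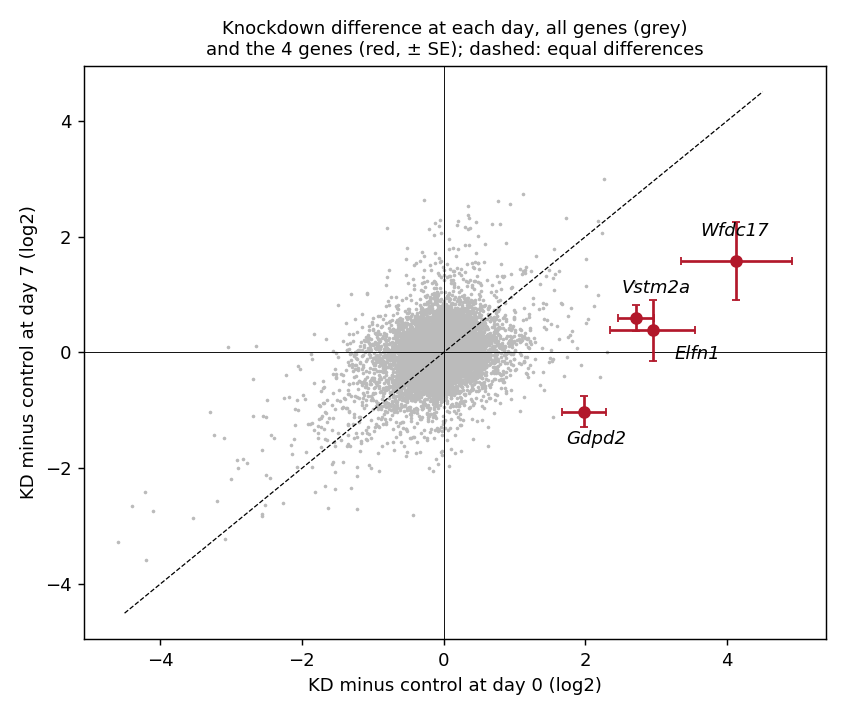
KD minus control at day 0 (horizontal, log2) against KD minus control at day 7 (vertical, log2) for 18193 genes in grey and the 4 genes in red with their SE; the dashed line marks equal differences. Wfdc17, Vstm2a and Elfn1 lie above 0 at both days, and Gdpd2 lies at 1.98 and -1.02.

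Single arrays and a measure of RNA quality moved with these values. Replicate 3 was the lowest day 0 KD array in all 4 genes, the highest day 7 KD array in all 4 and the highest day 7 control array in 3 (Vstm2a, Elfn1 and Wfdc17). Replicates 1 and 2 were the most alike arrays within each group. The SD over genes of replicate 1 minus replicate 2 was 0.179 in day 7 KD cells (0.307 to 0.541 for other pairs of that group) and 0.111 in day 7 controls (0.397 to 0.526). The difference between the 3′ and 5′ beta-actin control probe sets lay between 2.74 and 3.23 in day 0 KD cells and between 3.32 and 3.76 in day 0 controls, with no overlap. Replicate 3 had the lowest value of each group: 2.70 in day 7 KD cells, 2.74 in day 0 KD cells, 2.82 in day 7 controls and 3.32 in day 0 controls. With this beta-actin difference as a covariate the day 0 knockdown difference was 1.82 for Elfn1 and 2.33 for Vstm2a, and it was positive for Wfdc17 and Gdpd2 too. The part of the beta-actin difference in the day 0 knockdown differences was not tested otherwise.

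Whether depleted preadipocytes had reached the day 7 control level was asked by setting day 0 KD cells against day 7 controls. For Vstm2a the difference was -0.19 ± 0.24 (SE), with a 95% interval from -0.72 to 0.33, that is, 87.4% of the day 7 control level with an interval from 60.9% to 125%. The interval leaves room for a level well below or somewhat above that of day 7 controls. The sign rested on replicate 3 of the day 7 controls: without that array the difference was 0.04, and without replicate 3 of every group it was 0.16. The day 0 difference of 2.71 equals 93.3% of the 2.91 by which differentiated controls exceeded control preadipocytes on the log2 scale, and 85.5% on the linear scale. Both values use the same day 0 control arrays, and both are terms of the choice of the genes.

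In Wfdc17 and Gdpd2 every day 0 KD array lay above every day 7 control array, which 15.2% of all genes showed, while the groups overlapped in Elfn1. Wfdc17 differed by 3.47 ± 0.73 (interval 1.89 to 5.06), or 11.1-fold, and Gdpd2 by 1.91 ± 0.30 (interval 1.27 to 2.56), or 3.77-fold. Elfn1 differed by 1.44 ± 0.56 (interval 0.22 to 2.65), and its groups overlapped through replicate 3 of the day 7 controls. Without that array its difference was 1.96.

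In control cells, Vstm2a differed most between the days. It was 2.91 ± 0.24 (SE) higher in day 7 controls than in day 0 controls (interval 2.39 to 3.43), or 7.50-fold. Elfn1 was 1.51 ± 0.56 higher (interval 0.29 to 2.72), and in both genes every day 7 control array lay above every day 0 control array, as in 14.2% of all genes. For Elfn1 the value was 0.99 without replicate 3 of the day 7 controls, 0.91 with the beta-actin covariate and 1.76 with the replicate number as a block. Wfdc17 had 0.66 ± 0.73 (interval -0.93 to 2.24) and Gdpd2 0.06 ± 0.30 (interval -0.58 to 0.71), each smaller than its SE. From day 0 to day 7 the KD cells moved by 0.78 ± 0.24 for Vstm2a, -1.06 ± 0.56 for Elfn1, -1.89 ± 0.73 for Wfdc17 and -2.93 ± 0.30 for Gdpd2 (log2, SE). The control change is itself a term of the measure by which the genes were chosen.

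**Figure D3:**
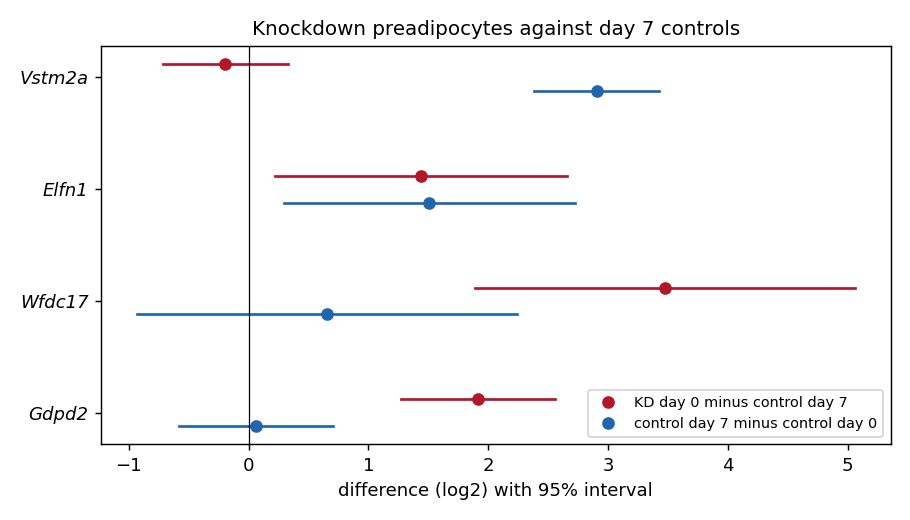
Differences on the log2 scale with 95% intervals for each gene: KD day 0 minus control day 7 in red and control day 7 minus control day 0 in blue. For Vstm2a the red interval spans 0 (-0.72 to 0.33), while for Wfdc17 and Gdpd2 the red interval lies above 0 and the blue one spans it.

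Most genes of mature fat cells were still far below the day 7 control level in depleted preadipocytes. Of 12 measured mature adipocyte markers, 9 were called lower in day 0 KD cells than in day 7 controls, 0 higher and 3 did not pass (Lpl 0.12, Lep -0.02 and Agpat2 -0.80), against 14.6% and 12.1% of all genes called lower and higher (26.7% in either direction). Retn, which encodes the adipokine resistin, had -5.12 ± 0.65, Adipoq, which encodes adiponectin, -4.63 ± 1.05, and the lipid droplet protein gene Cidec -4.41 ± 0.74 (log2, SE). The list's median was -2.74, and that of all genes -0.04. At day 0 itself 0 of the 12 markers passed in either direction between KD and control cells (median 0.41, against -0.05 for all genes). With same-numbered arrays of a day as a block, a fit that called more of all genes, 1, Fabp4, was higher. Fabp4 did not pass with the replicate number as a block over both days. Without replicate 3 of every group 10 of the 12 were called lower in day 0 KD cells than in day 7 controls, in a fit whose share of all genes is not given here.

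**Figure D4:**
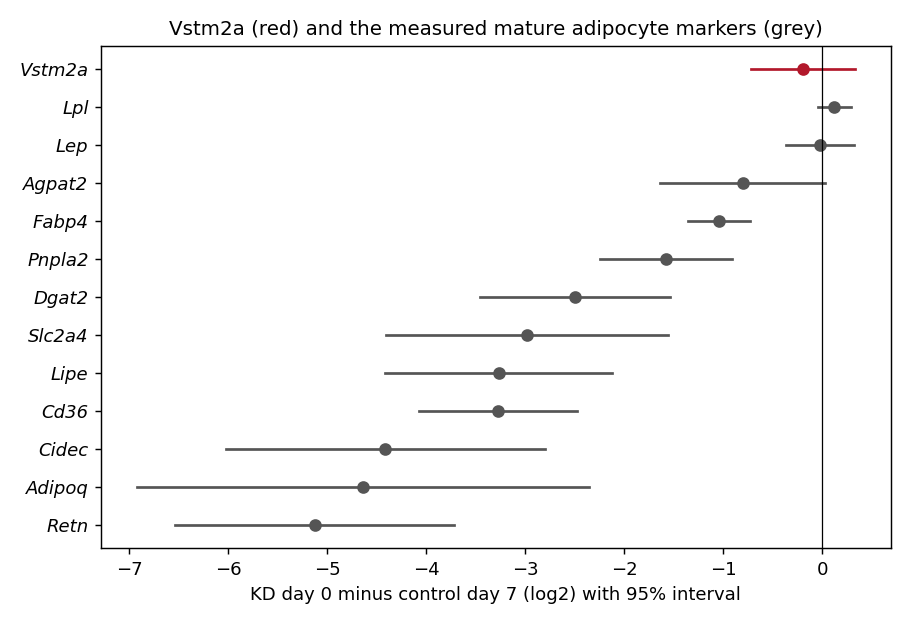
KD day 0 minus control day 7 on the log2 scale with 95% intervals for Vstm2a in red and the 12 measured mature adipocyte markers in grey. Vstm2a lies at -0.19, while 9 of the markers were called lower.

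Of 13 genes of adipogenic commitment and transcription, 6 were called lower in day 0 KD cells than in day 7 controls, among them Cebpa (-2.26 ± 0.46, adjusted p = 0.00281), which encodes C/EBP alpha, and the Krüppel-like factor gene Klf15 (-1.59 ± 0.43, adjusted p = 0.0148). Pparg, which encodes PPAR gamma and is named after its values were seen, had -0.80 ± 0.20 (adjusted p = 0.0089). The early adipogenic factor gene Klf5 was called higher (1.26 ± 0.22, adjusted p = 0.000987). In this comparison 14.6% of all genes were called lower and 12.1% higher. At day 0, 1 of the 13 rose with knockdown, Klf5 (1.11 ± 0.23, adjusted p = 0.0344), 0 fell and 12 did not pass, where 0.467% of all genes were called higher and 1.34% lower. At day 7, 1 fell, Cebpd (adjusted p = 0.0173), and 0 rose, where 3.57% of all genes were called lower and 3.01% higher (6.58% in either direction). With same-numbered arrays of a day as a block, a fit added after seeing the data, 4 of the 13 rose at day 7 (Cebpa, Ebf2, Pparg and Zfp423) and 2 fell (Cebpd and Klf4). With the replicate number as a block over both days, which was planned, 1 rose (Pparg) and 1 fell (Cebpd). Both fits called more of all genes at day 7 than the main fit.

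Of 21 genes of BMP signalling and its targets, the pathway in which Vstm2a is known to act, 1 was called at each day, where 1.80% of all genes were called at day 0 and 6.58% at day 7. Bambi, which encodes a pseudoreceptor that dampens BMP and TGF-beta signals, fell at day 0 (-1.36 ± 0.18, adjusted p = 0.00205). Id4, a helix-loop-helix regulator gene and BMP target, rose at day 7 (2.74 ± 0.33, adjusted p = 0.000897). At each day the other 20 genes did not pass, and the medians were 0.01 at day 0 and 0.04 at day 7, against -0.05 and -0.02 for all genes. With same-numbered arrays of a day as a block, Id1 and Id3, BMP target genes, also passed as higher at day 0, and Id1 and the inhibitory Smad gene Smad6 at day 7. With the replicate number as a block over both days Id1 did not pass at day 0. Both fits called more of all genes than the main fit. The Wnt co-receptor genes Lrp5 and Lrp6 did not pass at either day, and Lrp5 was called lower at day 7 with the block.

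Family relatives of the 4 genes did not pass at day 0. Among 4 relatives of Vstm2a (Vstm2b, Vstm2l, Vstm4 and Vstm5) 0 were called with knockdown at either day, and 1, Vstm5, rose in control differentiation, where 10.1% of all genes did. Their mean lay between 3.38 and 3.76 (log2) on every array, below the 25th percentile of gene means (3.84), so a change could be missed. Among 4 measured relatives of Gdpd2, 0 were called with knockdown at either day, and Gdpd1 fell in control differentiation, where 12.8% of all genes did. Without replicate 3 of every group Gde1, one of them, was called higher at day 7. Elfn2 and 3 measured group III metabotropic glutamate receptor genes, the known partners of Elfn1, were not called with knockdown at either day or in control differentiation. Their mean lay between 3.07 and 3.75 on every array, also below the 25th percentile of gene means. With same-numbered arrays as a block Grm4, one of these receptor genes, was called lower at day 7. Of 12 measured genes of the WAP domain family other than Wfdc17, 0 were called at day 0 and 1 rose at day 7, Wfdc21 (1.41 ± 0.34, adjusted p = 0.0322), where 3.01% of all genes rose and 3.57% fell. Slpi, another of the 12, was called lower at day 7 with same-numbered arrays as a block and without replicate 3 of every group. Without replicate 3 of every group Wfdc21 also passed at day 0 (1.73 ± 0.36, adjusted p = 0.0332). These other fits called more of all genes than the main fit at both days, as counted at the end.

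Wfdc17 lies on chromosome 11 among chemokine genes and relatives of its own family. The 3 measured genes on either side, in order, are Ccl6, Ccl3 and Ccl4, then Wfdc18, Wfdc21 and Heatr6. Ccl6, a chemokine gene of myeloid cells, was called higher in day 0 KD cells (2.95 ± 0.62, adjusted p = 0.0332), with 11.05 ± 1.22 in KD cells and 8.10 ± 0.98 in controls (SD, n = 3 each). Wfdc18 averaged 7.72 ± 0.34 in day 0 KD cells and 6.19 ± 0.10 in day 0 controls, without overlap, but did not pass (1.54 ± 0.59, adjusted p = 0.223). Ccl3 had 1.67 ± 0.48 (adjusted p = 0.109) and Wfdc21 1.12 ± 0.40 (adjusted p = 0.189), and Ccl4 and Heatr6 had 0.07 ± 0.18 and -0.33 ± 0.19. Beside the other 3 genes, 0 of the 6 measured neighbours of each were called at day 0. At day 7, 3 of the 6 neighbours of Elfn1 (Psmg3, Mrm2 and Nudt1), 1 of the 6 of Wfdc17 (Wfdc21) and 0 of the 6 each of Vstm2a and Gdpd2 were called higher, against 3.01% of all genes.

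**Figure D5:**
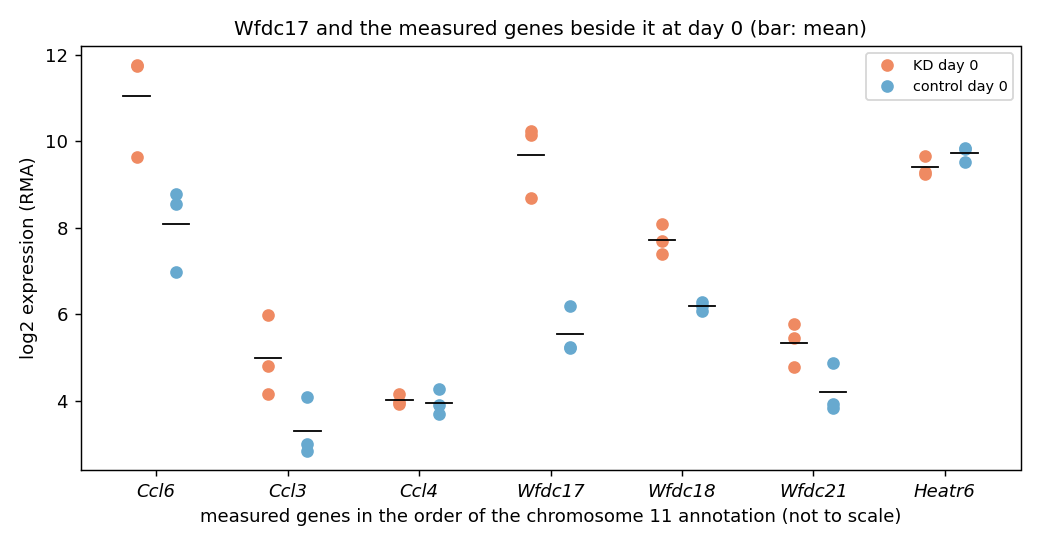
Log2 expression of Wfdc17 and the 3 measured genes on each side of it in the chromosome 11 gene order, for the 3 KD day 0 arrays (left) and the 3 control day 0 arrays (right), with the mean as a bar. Wfdc17 and Ccl6 show the widest gaps, and Ccl4 and Heatr6 differ little.

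Because Wfdc17 and Ccl6 are known from macrophages, the markers of those cells were examined. The summed level of the 14 listed macrophage and microglia markers was higher in day 0 KD cells (12.78 to 13.29 on the log2 scale of the sum) than in day 0 controls (11.81 to 12.27). Without the chemokine genes Ccl6 and Ccl9 the sum of the other 12 overlapped, with 10.40 to 10.55 in KD cells and 10.04 to 10.78 in controls. The defining markers Ptprc, Adgre1 and Tyrobp stayed between 2.10 and 3.62 on all 14 arrays, while Csf1r lay between 7.27 and 9.88 and Cd14 between 7.46 and 9.12. At day 0, 7 of the 14 had positive differences and 7 negative ones, with 0.90 ± 0.53 for Csf1r (adjusted p = 0.468). Of the 14 markers Ccl6 was called higher at day 0, where 0.467% of all genes were, 13 did not pass, and 0 were called at day 7, where 6.58% of all genes were. With same-numbered arrays of a day as a block 2 were called higher at day 0 (Ccl6 and Ccl9), and without replicate 3 of every group 3 were (Ccl6, Ccl9 and Cd14). At day 7 Ccl9 was called lower with that block, and Ccl9 and Cd14 without replicate 3. With the replicate number as a block over both days, only Ccl6 was called at day 0 and 0 were called at day 7. Each of these fits called more of all genes than the main fit. In day 0 KD cells Lyz2 and Ctss were called higher than in day 7 controls and Tyrobp lower, where 12.1% of all genes were called higher and 14.6% lower. Without replicate 3 of every group 6 of the 14 were called higher, in a fit whose share of all genes is not given here. The part of such cells in the Wfdc17 values was not tested. Of the 5 measured osteoblast markers, listed beside Gdpd2, 0 passed at either day, and of the 6 neuron markers, listed beside Elfn1, 0 passed at either day. Without replicate 3 of every group 2 osteoblast markers (Dmp1 and Phex) were lower and 1 neuron marker (Map2) was higher in day 0 KD cells. With same-numbered arrays of a day as a block Phex was lower at day 0 and the neuron marker Snap25 higher at day 7. Neither passed with the replicate number as a block over both days. In bulk RNA, fewer cells of a type and less RNA per cell cannot be told apart.

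The 4 genes did not follow 1 common pattern over the 14 arrays. Elfn1 and Wfdc17 were most alike (Pearson r = 0.90), Vstm2a and Elfn1 had r = 0.73, and Vstm2a and Gdpd2 had r = -0.09. Arrays of a group share their treatment and day, so these values are descriptions. Among 3279 other genes whose group means spanned at least 1 log2 unit, those most like Vstm2a were Slc16a6, a monocarboxylate transporter family gene (r = 0.97), Epas1, which encodes the hypoxia factor HIF-2 alpha (0.94), Zfp934 (0.93), Net1 (0.93), and the imprinted gene Peg10 (0.90). Slc16a6 averaged 5.63 ± 0.13 in day 7 KD cells, 5.19 ± 0.11 in day 0 KD cells, 5.001 ± 0.39 in day 7 controls and 3.45 ± 0.31 in day 0 controls (SD). Like Vstm2a it had a low day 0 control level and nearly equal levels in day 0 KD cells and day 7 controls, which its choice by r favours.

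Those most like Elfn1 were Wfdc17 (0.90), 5330434G04Rik (0.86), Ccl6 (0.86), Zbed6 (0.84) and Zp3 (0.78). Those most like Wfdc17 were Elfn1 (0.90), Epb41l4b (0.89), Lrrc75b (0.88), the heparan sulfate sulfotransferase gene Hs3st3b1 (0.87) and 5330434G04Rik (0.86). Those most like Gdpd2 were the serine protease gene Htra3 (0.93), the deubiquitinase gene Usp11 (0.93), 2810013P06Rik (0.91), the matrix protein gene Matn4 (0.90) and Insyn2a (0.90). By Spearman correlation 2 of the 5 genes named for Vstm2a, 3 each for Elfn1 and Wfdc17 and 0 for Gdpd2 were again among the first 5.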

How the data were processed

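The deposited table holds, for each probe set, 1 log2 value an array, made by the authors with RMA (background correction, quantile normalization and summarisation) and the affy package, per the submitters' processing notes. No version is named there. RNA was amplified and biotin-labelled, per the labels' protocols. Values from 1.13 to 14.37 set the base as log2. RMA understates changes near the bottom of the scale, no detection calls were used here, and precision is limited by how few arrays there are.

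Of 45101 probe sets, 64 controls were left out; 34945 had 1 symbol, 932 several and 9160 none here. The probe set of highest mean stood for each of 18193 genes. All 14 arrays entered 1 limma 3.58.1 fit (R 4.3.3, lmFit and eBayes, 1 mean per group), with Benjamini-Hochberg adjustment over all genes; every adjusted p comes from it unless an alternative is named, a gene was called at adjusted p under 0.05, and SE and 95% intervals are its own. The script was tested on simulated data. The members and gene lists were chosen with earlier results of these data known. Genes were named by a rule: the members and Trp53inp2, the 5 genes of highest Pearson r and the 3 measured neighbours a side for each member, family relatives, and at most 4 called genes a list. Neighbour order came from RefSeq GRCm38.p6, used for names and order. Same-numbered KD and control arrays deviated together within a day (correlation of deviations from group means 0.19 to 0.33 at day 0 and 0.39 to 0.59 at day 7). Across days the same check gave 0.14 to 0.21 for control arrays and 0.03 to 0.18 for KD arrays. These ranges overlap and arrays of unlike number were not compared across days, so pairing across days was left undecided. Tests of the members planned for control differentiation and for day 0 KD cells against day 7 controls are not reported as tests, since all 4 groups entered the choice of the members. Alternatives covered the probe set rule, normalization, filters, the replicate block, RNA quality and left-out arrays. The block within each day and leaving out replicate 3 of every group were chosen after seeing the data. In the Results, same-numbered arrays as a block means the block within each day, while the planned replicate block spans both days. No sequence of the proteins was used here.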

Additional observations from a re-analysis of the deposited data

Results flagged for a closer look

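Replicate 3 of both day 7 groups stood far above the other 3 arrays for Vstm2a, at 12.28 in KD cells and 11.87 in controls (log2), by Dixon's test at the 95% level. The same array of the day 7 controls stood apart for Elfn1, at 7.92. Chance would mark about 1 in 20 groups, and 10 groups were examined. Leaving out replicate 3 of every group, an alternative chosen after seeing the data, gave 0.16 for Vstm2a and 2.26 for Elfn1 as the difference between day 0 KD cells and day 7 controls.

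Gdpd2 moved in opposite directions at the 2 days. Every KD array was above every control array at day 0, and every KD array was below every control array at day 7, where the difference was -1.02. Of all genes, 27 (0.148%) showed this. Gdpd2 was chosen for the contrast between the days, and the difference between them was not tested here.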

How the results depend on the processing

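The day 0 knockdown difference was positive for all 4 genes under every alternative run. With the beta-actin covariate it was 2.33 for Vstm2a and 1.82 for Elfn1. Without replicate 3 of every group, chosen after seeing the data, Gdpd2 had 2.42 for it, -3.52 for the change between the days and -3.14 was the KD change with differentiation of Wfdc17; the Vstm2a share of the control change was 106%. For Elfn1 the control change was 1.76 with the replicate block, 1.51 without the dimmest 40% of genes and 1.04 without replicate 3 of every group, and ran from 0.99 to 1.69 with 1 array left out. For Gdpd2 it was -0.083 with the replicate block and -0.19 to 0.20 with 1 array left out. Day 0 KD cells minus day 7 controls gave 0.16 for Vstm2a and 2.26 for Elfn1 without replicate 3 of every group, 3.21 for Wfdc17 with replicates 1 and 2 averaged, and, with 1 array left out, -0.29 to 0.041 for Vstm2a and 1.25 to 1.96 for Elfn1. The replicate block turned no other direction of the 4 genes.

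The number of genes called at day 0 (328) was 1260 over every probe set, 572 with the replicate block, 844 with the block within each day (added after seeing the data), 24 with replicates 1 and 2 averaged, 517 with arrays shifted to 1 median, 498 without the dimmest 40%, 207 with only the 2 groups compared, 590 with the beta-actin covariate, 889 without replicate 3 of every group and 101 (without replicate 2 of the day 0 KD cells) to 631 (without their replicate 3) with 1 array left out. At day 7 (1197) it was 1850 with the replicate block, 2680 with the block within each day, 64 with replicates averaged, 1831 without the dimmest 40%, 333 with only the 2 groups, 2804 with the covariate, 2742 without replicate 3 of every group and 369 (without replicate 1 of the day 7 KD cells) to 2885 (without their replicate 3) with 1 array left out. For control differentiation (4162) it was 7871 over every probe set and 1584 with replicates averaged, and for day 0 KD cells against day 7 controls (4853) it was 10455 and 2206. The counts over every probe set (1260, 7871 and 10455) are of probe sets, from 45101 less 64 controls, not of the 18193 genes. Those without the dimmest 40% are of the genes left. Neither kind can be set directly against the main counts. The causes were not tested. No detection call bounds the dim probe sets.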
